A study of Homo sapiens with 10 samples.

Results

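The 30 genes described here encode proteins of homologous recombination and of the Fanconi anemia (FA) pathway, together with the mismatch recognition gene MSH6 and the cohesion gene DSCC1, which belong to neighbouring pathways. They were chosen by gene symbol from the 32738 genes in the count tables, with earlier results of these data known. All 30 passed the filter on low counts in every comparison. The values are UMI counts (unique molecular identifiers, 1 per captured mRNA molecule) from droplet single-cell RNA sequencing of WT HCT-116 cells, an established human colorectal carcinoma line. The 2 control libraries are untreated cells, and the 2 DOX libraries are cells of the same line exposed to 200 nM doxorubicin (DOX) for 24 h and left to recover without the drug for 6 d. Doxorubicin poisons topoisomerase II and breaks DNA. The line is 1 genotype in culture, and whether the replicates were grown apart is not stated in the labels, so the p-values reflect only the variation among 4 libraries, which may be technical. The bulk RNA samples of the series were not analysed here.

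Homologous recombination repairs a broken chromosome by copying the sister chromatid, so it is used mainly in S and G2 phases, after the DNA has been copied. The MRN complex and its helpers trim the broken end to single-stranded DNA, BRCA1 and BRCA2 with their partners load a strand-exchange recombinase onto it, and helicases and nucleases resolve the joined molecules. The FA pathway acts when DNA strands are cross-linked: a core complex attaches ubiquitin to FANCD2 and FANCI, which then bring in nucleases and the recombination proteins. Many of these genes are transcribed around the G1/S transition under E2F factors, and their loss in the germ line causes cancer predisposition or FA.

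Because DOX-treated cultures hold both dividing and arrested cells, barcodes were compared at 3 levels. Kept cells are barcodes with at least 20000 UMIs and less than 8% mitochondrial UMIs, of which the untreated libraries held 3572 of 4701 and 2137 of 2528 barcodes and the DOX libraries 1307 of 8000 and 1080 of 8000. Low cells are kept cells with at most 3 UMIs of the proliferation genes MKI67 and TOP2A together, and high cells have at least 15. Low cells made up 3.16% (95% exact binomial interval 2.61 to 3.79%) and 2.25% (1.66 to 2.97%) of untreated kept cells, against 31.6% (29.1 to 34.2%) and 27.5% (24.9 to 30.3%) of DOX kept cells. High cells made up 75.2% and 84.5% of untreated and 48.0% and 52.2% of DOX kept cells. The classes are ranges of 1 count, not cell types: 26 to 66 kept cells per library held 2 or 3 marker UMIs and 21 to 74 held 4 or 5. The study's cluster with signs of arrest and senescence had few genes detected per cell. DOX low cells had medians of 8599 and 9012 genes, and the 6114 and 6269 DOX barcodes under 20000 UMIs were not kept. Low cells thus do not stand for that cluster. Depth also moved with the class, with median UMIs of 47160 and 55985 in untreated low cells but 76430 and 93553 in DOX low cells, and its part in the results is addressed only through the alternatives named with them.

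Total UMIs were 317489299 and 209547139 in the untreated libraries and 159897846 and 170495465 in the DOX libraries, and any pair of them shared 5 to 24 barcode sequences, of which at most 2 were kept cells in both. The p53 target CDKN1A, which encodes the cell cycle inhibitor p21, checked the treatment label: it stood at 29.1 and 29.3 CPM (counts-per-million, a part of all UMIs) in untreated kept cells and at 281 and 240 CPM in DOX kept cells. The epithelial genes EPCAM, KRT8, KRT18, KRT19 and CDH1 and the intestinal factor CDX2 were present, while CDX1, CEACAM5 and LGALS4 were at or below 0.176 CPM and TFF3 was at 0 in every library. Of the 9 colon epithelial genes that could be tested, 5 were higher and 2 lower with DOX, where 28.2% of all genes rose and 26.4% fell. The 13 markers of other cell types were mostly those of blood, stromal and endothelial cells. They summed to 5.83 and 6.05 CPM in untreated and 9.88 and 11.2 CPM in DOX kept cells. Of the 7 that could be tested, 5 were higher with DOX, led by LYZ, PTPRC and COL1A1. The defining marker COL1A2 was at 0 in every library, PTPRC reached no more than 0.366 CPM, and the part of these markers in the results was not tested.

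Short stretches of 5 promoters are shown because E2F sites are known control elements of several of these genes. Each stretch is 30 bases around an E2F-type run of letters in a RefSeq promoter window (250 bases before to 50 after a gene's start, build GRCh38.p14), written 5′ to 3′ on the gene's strand with the run in capitals. EXO1, FANCA, FANCD2 and MSH6 are members with large differences in the results that follow, and FANCF is the member of the FA core complex that was called in none of the comparisons as set.
EXO1, chr1:241848197-241848226, plus strand: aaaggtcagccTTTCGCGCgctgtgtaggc
FANCA, chr16:89816801-89816830, minus strand: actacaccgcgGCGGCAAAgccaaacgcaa
FANCD2, chr3:10026424-10026453, plus strand: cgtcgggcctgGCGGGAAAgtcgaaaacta
MSH6, chr2:47783137-47783166, plus strand: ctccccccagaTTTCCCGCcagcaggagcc
FANCF, chr11:22625870-22625899, minus strand: gaggcgtatcaTTTCGCGGatgttccaatc
The runs searched were TTTGGCGC, TTTCGCGC, TTTGGCGG, TTTCCCGC, TTTCGCGG and TTTGCCGC on both strands, which overlap in their letters. A window was matched for 25 of the 30 members, and 7 of these 25 (28.0%) held such a run, compared with 1412 of 27305 genes (5.17%). The other 2 were FANCC and XRCC2. The cell cycle homology letters TTTGAA and TTCGAA, typical of genes of G2/M phase, occurred in 2 of the 25 members (8.0%) and in 19.5% of all genes. A match is a run of letters, not a shown binding site. The E2F-type runs hold more G and C than the cell cycle homology letters. The shares were not adjusted for the base content of promoters, and its part in them was not tested. No window was matched for NBN, RAD54B, DSCC1, WRN and FANCI.

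Across kept cells, the 30 genes were lower in the DOX libraries almost without exception. Together they made up 1523 and 1625 CPM in the untreated and 1152 and 1239 CPM in the DOX libraries. Of the 30 genes, 28 fell and none rose in edgeR's quasi-likelihood test (adjusted p under 0.05, n = 2 against 2 libraries), where 26.4% of the 21563 genes tested fell and 28.2% rose. The median log2 fold change was -0.64 for the members and 0.04 for all genes. The members were chosen with earlier results of these data known, so their counts do not extend to all recombination and FA genes. Of 47 further ones, 36 fell and 3 rose (median -0.38). No member was higher at an unadjusted p under 0.05 or with DESeq2 either. At that p 6734 of 21563 genes were higher, and DESeq2 called 20.5% higher. For 26 genes both DOX values (in CPM) were below both untreated values and for 0 above, where 23.3% of all genes tested lay below and 53.9% above. The 4 exceptions were MRE11A, RAD50, WRN and FANCF. The fold changes are scaled by TMM factors, while CPM are parts of all UMIs. With total UMIs alone the median of all genes was 0.21, the split of all calls went from 5695 lower and 6077 higher to 3259 and 8472, and 24 members still fell (not PALB2, WRN, RBBP8 or MRE11A), where 15.1% of all genes fell.

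**Figure D1:**
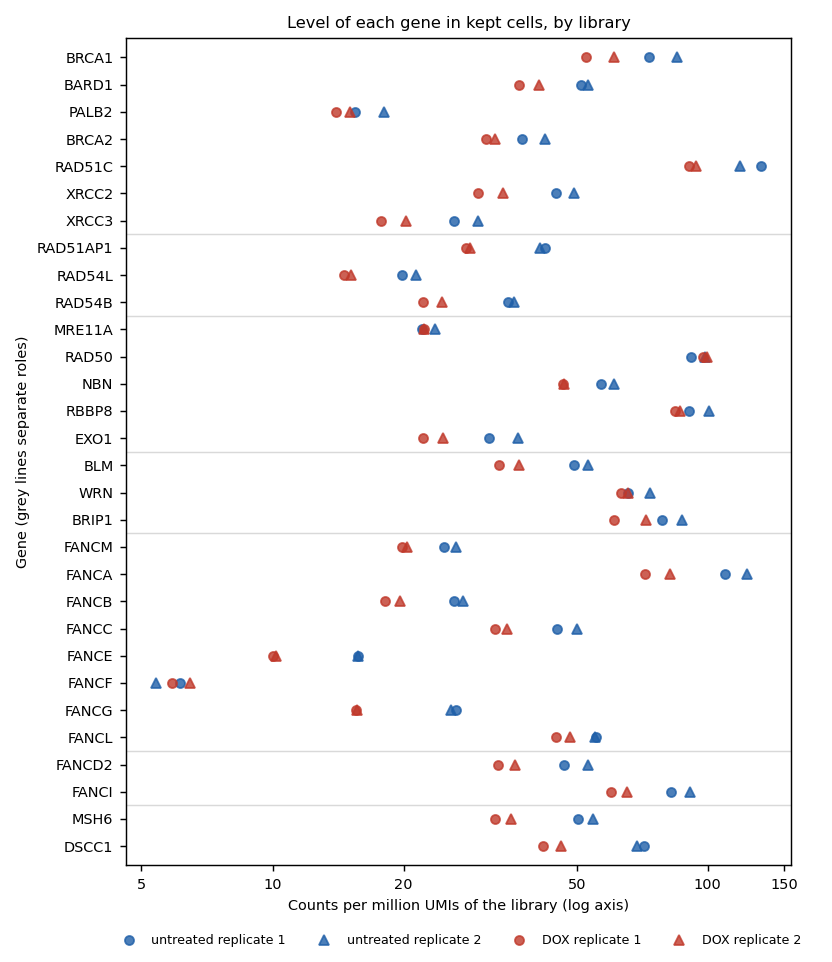
Level of each of the 30 genes in kept cells, in CPM on a log axis. Circles are replicate 1 and triangles replicate 2 of untreated (blue) and DOX (red) libraries, and grey lines separate the roles. For 26 genes both red symbols lie left of both blue ones.

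All 7 genes of the group that loads and supports the recombinase fell, with log2 fold changes from -0.73 to -0.37. BRCA1, a ubiquitin ligase that promotes resection (hg19 chr17:41196312-41322262), stood at 73.3 and 85.0 CPM untreated and 52.4 and 61.0 CPM with DOX, with no overlap between the conditions (log2 fold change -0.65, SE 0.08, adjusted p = 0.00019). BRCA2, which places the recombinase on DNA (hg19 chr13:32889223-32974405), stood at 37.4 and 42.2 CPM untreated and at 31.0 and 32.5 CPM with DOX (-0.49, SE 0.06, adjusted p = 0.00018). The recombinase paralogs XRCC2 and XRCC3 changed by -0.73 and -0.72, and RAD51C by -0.62. PALB2, the bridge between BRCA1 and BRCA2, had the smallest change of the group, from 15.5 and 18.0 to 13.97 and 15.1 CPM (-0.37, SE 0.07, adjusted p = 0.0018). The 3 genes that help strand exchange itself fell too, with log2 fold changes of -0.77 for RAD54B, -0.74 for RAD51AP1 and -0.64 for RAD54L.

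Genes of end resection were uneven. EXO1, the exonuclease that extends resection over long distances (hg19 chr1:242011269-242058450), stood at 31.4 and 36.7 CPM untreated and at 22.1 and 24.7 CPM with DOX (-0.71, SE 0.07, adjusted p = 7.9e-05). In contrast, RAD50, the ATPase of the MRN complex (hg19 chr5:131891711-131982041), stood at 91.3 and 98.4 CPM untreated and 97.7 and 99.5 CPM with DOX, so the conditions overlapped (-0.11, SE 0.06, adjusted p = 0.14). Its partners in the complex differed from each other, with NBN at -0.50 (adjusted p = 0.00011) and the nuclease MRE11A at -0.20 (adjusted p = 0.014). MRE11A stood at 22.1 and 23.6 CPM untreated and at 22.3 CPM in both DOX libraries, so its call rests on the TMM scaling, and it was lost without DOX replicate 1 or 2. RBBP8, also named CtIP, which starts resection, changed by -0.33.

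Of the helicases, BLM, which dissolves joined molecules, changed by -0.72, BRIP1, which binds BRCA1, by -0.49 and WRN by -0.28. WRN stood at 65.7 and 73.6 CPM untreated and 63.2 and 65.7 CPM with DOX, and its call was lost without DOX replicate 1. The FA core complex held both the largest and the smallest change. FANCG (hg19 chr9:35073832-35080001) fell from 26.5 and 25.7 to 15.5 and 15.7 CPM (-0.91, SE 0.07, adjusted p = 1.6e-05). FANCF (hg19 chr11:22644079-22647369), an intronless gene with low counts, stood at 6.14 and 5.41 CPM untreated and 5.88 and 6.47 CPM with DOX (-0.08, SE 0.10, adjusted p = 0.56). RAD50 and FANCF were both called lower when barcodes of up to 20% mitochondrial UMIs were kept. The remaining core genes changed by -0.81 (FANCE), -0.76 (FANCA), -0.67 (FANCB and FANCC), -0.51 (FANCM) and -0.42 (the ubiquitin ligase FANCL).

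The targets of the core complex moved alike. FANCD2 stood at 46.8 and 53.1 CPM untreated and 33.0 and 36.0 CPM with DOX (-0.70, SE 0.06, adjusted p = 4.7e-05), and FANCI at 82.4 and 91.0 against 59.8 and 65.3 CPM (-0.64, SE 0.07, adjusted p = 6.9e-05). MSH6 and DSCC1, which are not recombination genes in the strict sense, were among the larger changes at -0.80 and -0.85. DSCC1, a subunit of an alternative clamp loader, stood at 71.3 and 68.9 CPM untreated and 41.7 and 46.0 CPM with DOX.

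Other repair genes fell as well, by less at the median. Of 47 further genes of recombination and the FA pathway, 36 fell and 3 rose, the median log2 fold change being -0.38. The lowest adjusted p-values were those of PSMC3IP, a partner of the recombinase (-0.97), the nuclease subunit EME1 (-0.83) and USP1, which removes ubiquitin from FANCD2 (-0.68). The 3 that rose, named after their values were seen, were RMI2, a partner of BLM (0.36), C1orf86 (0.28) and HELB (0.25). Of 16 end-joining genes 11 fell and none rose (median -0.37, 1 higher at an unadjusted p under 0.05). Cohesion and clamp-loading genes (19 of 20 lower, median -0.72), genes of G1/S (18 of 18, -0.81) and of G2/M (18 of 18, -0.89) showed changes of the same size as the members or larger, and 17 of 18 p53 targets rose (median 1.20). The share of low cells moved with all of these changes.

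Among high cells, in which MKI67 and TOP2A together stood at 481 and 541 CPM untreated and 514 and 505 CPM with DOX, the differences in the members were small. The 30 genes together made up 1537 and 1650 CPM untreated and 1501 and 1574 CPM with DOX, so the conditions overlapped. Only 10 of the 30 fell and none rose, the median log2 fold change being -0.14 (all genes 0.03), where 15.9% of 20167 genes fell and 16.4% rose. At an unadjusted p under 0.05, 14 fell and none rose, where 4190 of 20167 genes fell and 4446 rose. DESeq2 called 11 lower and 0 higher, where 15.6% of all genes fell and 10.6% rose. Both DOX values lay below both untreated values for 9 genes and above them for 3, where 21.1% of all genes tested lay below and 43.9% above. MKI67 and TOP2A were not called (-0.04 and -0.17, 1 of the 2 at an unadjusted p under 0.05). High cells were cut on these 2 genes, so their similar levels follow in part from the rule and cannot show like proliferation. The count of 10 rests on few libraries and on the scaling: it was 3 without DOX replicate 1 (9.0% of all genes fell), 14 without untreated replicate 1 (18.6%) and 4 with total UMIs only (8.82%), which moved the median of all genes to 0.12.

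MSH6 and FANCE had the largest differences among high cells. MSH6, the mismatch recognition gene, stood at 49.5 and 54.5 CPM untreated and at 38.7 and 42.4 CPM with DOX (-0.45, SE 0.06, adjusted p = 0.00084). FANCE stood at 15.7 CPM in both untreated and at 12.1 and 12.4 CPM in the DOX libraries (-0.45, SE 0.07, adjusted p = 0.0012). FANCG changed by -0.34, DSCC1 by -0.31, FANCC by -0.28 and FANCA by -0.26. The other 4 calls, NBN, RAD54B, XRCC3 and XRCC2, lay between -0.24 and -0.20. With total UMIs only, 4 calls remained and RAD54B, XRCC2, XRCC3, NBN, FANCA and FANCC lost theirs, and without DOX replicate 1 DSCC1 lost its call as well.

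BRCA1, BRCA2, FANCD2 and BRIP1 were not called among high cells in the fit as set. BRCA1 stood at 73.7 and 86.5 CPM untreated and 75.1 and 82.1 CPM with DOX, with overlapping conditions (-0.11, SE 0.07, adjusted p = 0.25). BRCA2 stood at 38.4 and 43.6 CPM untreated and 46.7 and 46.4 CPM with DOX (0.10, SE 0.06, adjusted p = 0.26), and BRIP1 at 77.8 and 87.5 against 85.4 and 95.1 CPM (0.04, SE 0.07). FANCD2 had -0.16 (SE 0.06, adjusted p = 0.076). Without untreated replicate 1, BRCA1 (-0.19, adjusted p = 0.013) and FANCD2 (-0.21, adjusted p = 0.0052) were called lower, and FANCD2 also with no filter on low counts and with the replicate number as a block. A p that misses the threshold does not show that the levels were equal.

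Of the 47 further recombination and FA genes, 12 fell and 2 rose among high cells (median -0.11), and RMI2 rose most clearly, from 8.89 and 8.27 to 15.2 and 15.1 CPM (0.72, SE 0.08, adjusted p = 0.00022). Genes of G1/S were lower than the members' median there (17 of 18 fell, -0.35), as were those of G2/M (10 of 18, -0.23). The p53 targets stayed higher (16 of 18, 0.77).

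**Figure D2:**
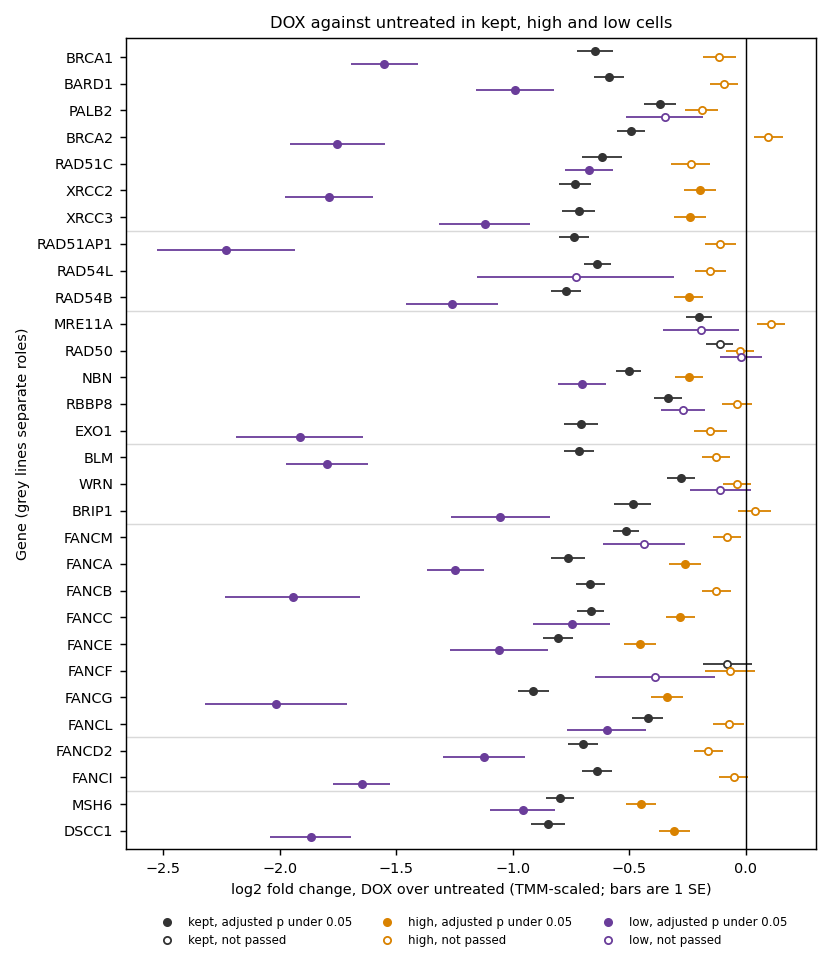
Log2 fold change of DOX over untreated (TMM-scaled) for each gene in kept (black), high (orange) and low (purple) cells. Filled points passed an adjusted p of 0.05, open points did not, and bars are 1 SE. The orange points lie between -0.45 and 0.11, and the kept-cell points between -0.91 and -0.08.

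Within each condition, low cells held far less of these transcripts than high cells of the same library. The members together stood at 802 and 721 CPM in untreated low cells against 1537 and 1650 CPM in high cells, and at 503 and 508 CPM against 1501 and 1574 CPM in the DOX libraries. In the untreated libraries 28 of 30 were lower in low cells and none was higher, with a median log2 fold change of -1.38 (all genes -0.12), where 21.7% of 19572 genes were lower and 7.2% higher. In the DOX libraries it was also 28 and 0, with a median of -2.44 (all genes 0.04), where 26.3% were lower and 23.2% higher. No member was higher at an unadjusted p under 0.05 in either condition, nor with DESeq2, which called 26 and 28 lower. At that p 2191 and 5301 of 19572 genes were higher. Of all genes, DESeq2 called 12.9% and 20.3% lower and 8.25% and 16.8% higher. The classes were cut on MKI67 and TOP2A, which are not members. Both are cell cycle genes, so lower levels of other cell cycle genes follow in part from the cut. Of G2/M genes 18 of 18 were lower in both conditions (median -2.60 untreated and -4.22 with DOX). Of G1/S genes it was 17 and 18 of 18 (-1.07 and -2.32), and of cohesion and clamp-loading genes 19 of 20 in both (-1.09 and -2.07). Of the 47 further recombination and FA genes, 29 and 33 were lower and 0 and 3 higher (-0.50 and -0.89).

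The largest differences in the DOX libraries were those of RAD51AP1, EXO1 and BRCA2, and in the untreated libraries those of EXO1 (-2.06), RAD51AP1 (-1.86) and BLM (-1.84). In the DOX libraries RAD51AP1, which stimulates the joining of DNA molecules (hg19 chr12:4647964-4669213), stood at 42.7 and 42.3 CPM in high and at 3.28 and 2.52 CPM in low cells (-3.97, SE 0.13, adjusted p = 8.5e-10). EXO1 stood at 32.0 and 33.9 CPM in high and 2.65 and 2.28 CPM in low cells (-3.84, SE 0.13, adjusted p = 1.0e-09). BRCA2 stood at 46.7 and 46.4 CPM in high and 4.18 and 3.87 CPM in low cells (-3.63, SE 0.09, adjusted p = 1.2e-10). BLM (-3.49), FANCI (-3.24), DSCC1 (-3.19), FANCB (-3.15) and XRCC2 (-3.02) followed.

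RAD50 and FANCF were the 2 members not called. RAD50 stood at 99.5 and 101 CPM in DOX high cells and at 97.9 and 97.6 CPM in DOX low cells (-0.14, SE 0.06, adjusted p = 0.061), and its difference in the untreated libraries was -0.18 (SE 0.07, adjusted p = 0.073). It was called lower in the DOX libraries without untreated replicate 1 or 2, with no filter on low counts, at 10000 UMIs, at a mitochondrial share under 20% and with the study's upper limits. FANCF had 0.06 (SE 0.14) with DOX and 0.32 (SE 0.20) without. The other MRN subunits were called, NBN at -0.78 and MRE11A at -1.03 in the DOX libraries, as were PALB2 (-0.57) and WRN (-0.70). The calls of PALB2 and NBN in the untreated libraries (-0.43 and -0.35) were lost without untreated replicate 1 and under several other settings.

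**Figure D3:**
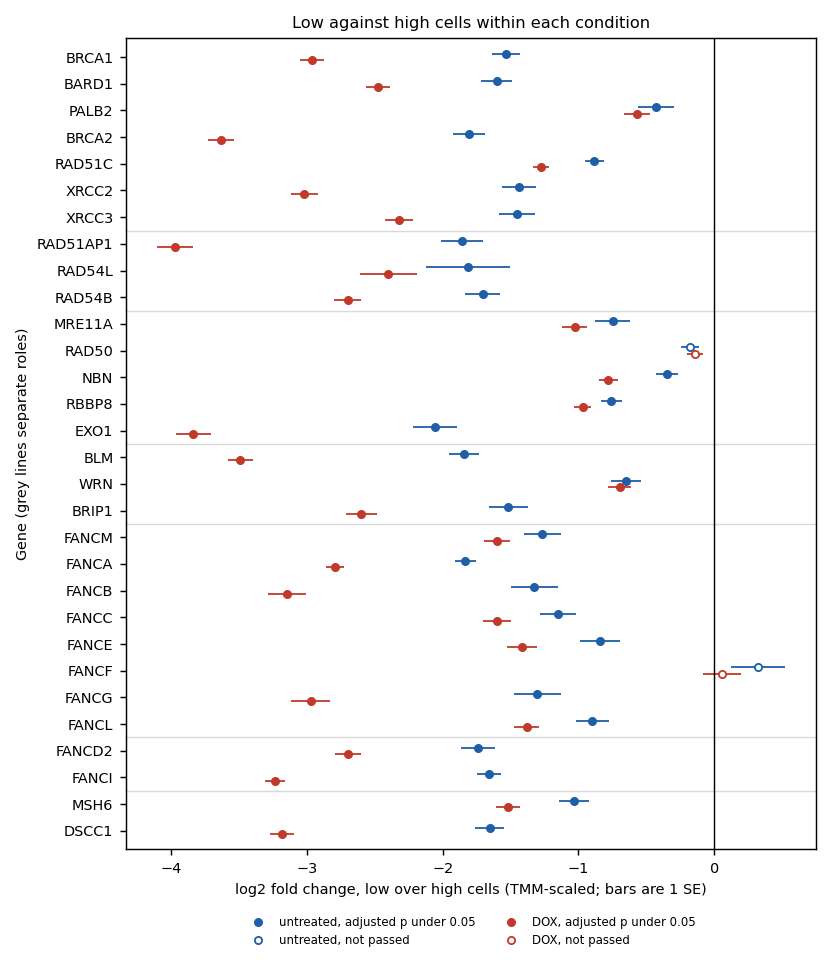
Log2 fold change of low over high cells (TMM-scaled) within untreated (blue) and DOX (red) libraries. Filled points passed an adjusted p of 0.05, open points did not, and bars are 1 SE. RAD50 and FANCF have open points in both conditions, FANCF at 0.32 untreated and 0.06 with DOX. RAD51AP1, EXO1 and BRCA2 reach -3.97, -3.84 and -3.63 in the DOX libraries.

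The share of cells with a UMI after thinning each barcode to 20000 UMIs is given for EXO1 and RAD50 only. EXO1 had a large low-to-high difference, and RAD50 was not called. The classes were still those cut on unthinned marker counts. EXO1 was found in 19.5% (12.6 to 28.0%) and 14.6% (6.07 to 27.8%) of untreated low cells and in 5.33% (3.37 to 7.95%) and 4.04% (2.10 to 6.95%) of DOX low cells. In high cells its share was 43.5% and 49.9% untreated and 42.7% and 42.4% with DOX. Unthinned, the shares in low cells were 31.0%, 22.9%, 11.9% and 8.42%. RAD50 was found in 80.5% and 83.3% of untreated and 76.3% and 75.8% of DOX low cells. The samples held no cell type known to lack these genes, so the level that free RNA gives was not measured, and the intervals cover counting error only.

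The pooled level of the members rose with the marker count up to 15 to 29 marker UMIs in every library. Each value is a sum over the cells of a bin. It cannot tell a gradual rise from a changing mix of 2 kinds of cell. In cells with no MKI67 or TOP2A UMI they stood at 437 and 597 CPM (29 and 18 untreated cells) and at 433 and 421 CPM (DOX). With 1 to 3 marker UMIs the values were 970 and 812 CPM untreated and 610 and 634 CPM with DOX. The highest values of each library lay at 15 to 29 marker UMIs, at 1614 and 1719 CPM untreated and 1582 and 1683 CPM with DOX, and at 60 or more they were 1482 and 1575 against 1428 and 1482 CPM. At 4 to 7 marker UMIs they were 1467 and 1286 against 1162 and 1074 CPM, and at 8 to 14 they were 1564 and 1603 against 1397 and 1490 CPM. The conditions thus did not overlap from 0 to 14 marker UMIs, although at 0 the lower untreated value was close to both DOX values, and they overlapped at 15 to 29.

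**Figure D4:**
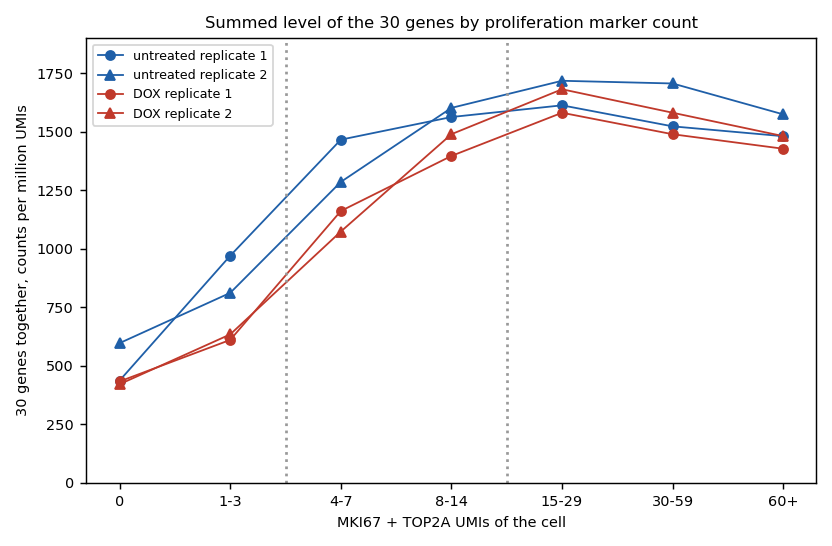
Summed level of the 30 genes in CPM, by the number of MKI67 and TOP2A UMIs of the cell. Each line is 1 library, and dotted lines mark the limits of the low and high classes. At 0 marker UMIs the libraries range from 421 to 597, and at 15 to 29 from 1582 to 1719.

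DOX low cells held less of the members than untreated low cells when the class included cells with 1 to 3 marker UMIs. Of the 30 genes 22 fell and none rose, the median log2 fold change being -1.06 (all genes 0.05), where 13.9% of 16522 genes fell and 12.1% rose. At an unadjusted p under 0.05, 24 fell and none rose, where 3140 of 16522 genes fell and 3217 rose. DESeq2 called 22 lower and 0 higher, where 11.7% of all genes fell and 7.03% rose. MKI67 and TOP2A themselves were lower in DOX low cells, at -2.01 and -1.95, and so were the genes of G1/S (18 of 18, median -1.53) and G2/M (17 of 18, -2.09). In cells with no marker UMI, an alternative chosen after seeing the data, 0 members were called in either direction and the median was -0.47, but only 2.06% of all genes were called lower and 1.83% higher there. RAD51AP1 had -1.76 (adjusted p = 0.11) and FANCI -1.33 (adjusted p = 0.053) in those cells. With classes cut by the share of marker UMIs instead of their number, 14 fell and the median was -0.66, where 11.1% of all genes fell. With each cell thinned to 20000 UMIs in the classes as first cut, 20 fell and the median was -1.10, where 14.4% of all genes fell. Depth and the residual marker count both moved with the condition inside this class, and their part in the difference was not tested further.

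RAD51AP1 stood at 15.2 and 9.05 CPM in untreated and 3.28 and 2.52 CPM in DOX low cells (-2.23, SE 0.29, adjusted p = 0.0015). These levels rest on 93 and 28 UMIs in the untreated and 109 and 73 UMIs in the DOX libraries. FANCG changed by -2.02, FANCB by -1.94, EXO1 by -1.91, DSCC1 by -1.87, BLM by -1.80, XRCC2 by -1.79 and BRCA2 by -1.75. BRCA1 stood at 30.5 and 27.5 CPM untreated and 9.96 and 11.8 CPM with DOX (-1.55, SE 0.14, adjusted p = 0.00044), and FANCI at 29.9 and 30.1 against 10.2 and 10.6 CPM (-1.65, SE 0.12, adjusted p = 0.00024). For 25 genes both DOX values were below both untreated values and for RAD50 both were above, where 22.5% of all genes tested lay below and 44.1% above. RAD50 had 87.5 and 96.0 CPM untreated and 97.9 and 97.6 CPM with DOX (-0.02, SE 0.09), WRN -0.11 (SE 0.13), MRE11A -0.19 (SE 0.16), RBBP8 -0.27 (SE 0.09) and PALB2 -0.35 (SE 0.17), none of them called. Without untreated replicate 1, the calls of BRIP1, FANCC and FANCL were lost, and that of FANCL also without DOX replicate 2.

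The low-to-high difference was larger with DOX than without it for 18 of the 30 genes and smaller for none (test of the difference itself, median -0.87, all genes 0.07), where 4.37% of all genes passed in that direction and 3.36% in the other. No member was smaller at an unadjusted p under 0.05 or with DESeq2, which called 19 larger and 4.95% of all genes. In the fit as set, the drop was also larger for 17 of 18 genes of G1/S (median -1.23) and 17 of 18 of G2/M (-1.87). It was larger too for 15 of 20 cohesion and clamp-loading genes (-0.87) and for MKI67 and TOP2A, on which the classes were cut. Of the 47 further recombination and FA genes, 12 had a larger and 1 a smaller drop (-0.25). The difference in log2 fold change was -2.11 for RAD51AP1 (SE 0.24, adjusted p = 0.00035), -1.83 for BRCA2 (SE 0.17, adjusted p = 0.00013), -1.82 for FANCB and -1.78 for EXO1. It was -0.14 for PALB2, -0.28 for MRE11A, -0.21 for RBBP8 and 0.04 for RAD50, which were not called. By role, 6 of 7 genes around BRCA1 and BRCA2 and both FANCD2 and FANCI passed, but 3 of 8 of the FA core complex. This count too rests on where the classes were cut, being 9 with classes by share of UMIs (2.52% of all genes passed in that direction) and 1 (FANCI) in cells with no marker UMI (1.71%). Without untreated replicate 1 it was 13 (5.21%), with BARD1, RAD54B, XRCC3, NBN and FANCD2 lost, and RAD51C and NBN were lost without DOX replicate 1 or 2.

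To place the members in the cell cycle, high cells of each library were ordered by the share of G1/S genes among their G1/S and G2/M UMIs, and the top of 3 equal parts (G1/S-leaning) was compared with the bottom one (G2/M-leaning). Neither list holds a member, but the groups were made from the same counts and are ranges, not phases. In the untreated libraries 25 of 30 members were higher in G1/S-leaning cells and none was lower, with a median log2 fold change of 0.48 (all genes -0.01), where 16.1% of 17961 genes were higher and 16.9% lower. At an unadjusted p under 0.05, NBN and FANCF were lower (-0.09 and -0.22), DESeq2 called none lower, and 2 members, NBN among them, were called lower without DOX replicate 1 or 2. Of all genes, 3934 of 17961 were lower at that unadjusted p, and DESeq2 called 5.78% lower and 6.12% higher. With DESeq2 the higher calls of RAD51C, FANCE, FANCG and FANCM were lost in the untreated libraries. In the DOX libraries 23 members were higher and 1, NBN, was lower (median 0.52, all genes -0.03), where 11.3% were higher and 14.6% lower. Of the 47 further recombination and FA genes, 20 were higher and 10 lower untreated (median 0.04), and 20 and 5 with DOX (0.13).

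BRIP1 and EXO1 leaned furthest to G1/S. BRIP1 (hg19 chr17:59756500-59940920) stood at 121 and 129 CPM in G1/S-leaning and 42.7 and 49.5 CPM in G2/M-leaning untreated cells (1.41, SE 0.04, adjusted p = 5.4e-14), and at 140 and 149 against 43.5 and 46.1 CPM with DOX (1.62). EXO1 had 1.27 and 1.73, MSH6 1.06 and 1.32, RAD54L 0.90 and 1.13, BRCA1 0.85 and 1.20 and XRCC3 0.85 and 1.08 in untreated and DOX libraries. The ranges of these genes in the G1/S-leaning and G2/M-leaning cells did not overlap in either condition.

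Other members differed little between the ends of the cycle. PALB2 (0.02 and -0.02) and WRN (0.07 and 0.02) were not called in either condition. NBN stood at 53.3 and 52.0 CPM in G1/S-leaning and 54.8 and 58.1 CPM in G2/M-leaning DOX cells (-0.17, SE 0.05, adjusted p = 0.029), a call lost in most alternatives. BRCA2 (0.30 and 0.34), FANCD2 (0.26 and 0.37) and RAD51AP1 (0.27 and 0.34) were called but small, although RAD51AP1 and BRCA2 were among the 3 members with the largest low-to-high differences in the DOX libraries. In the untreated libraries the calls of BRCA2, RAD51C, RAD51AP1, MRE11A, FANCE, FANCG and FANCM were lost without untreated replicate 1, and those of RAD51C, FANCE and FANCG also without untreated replicate 2.

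**Figure D5:**
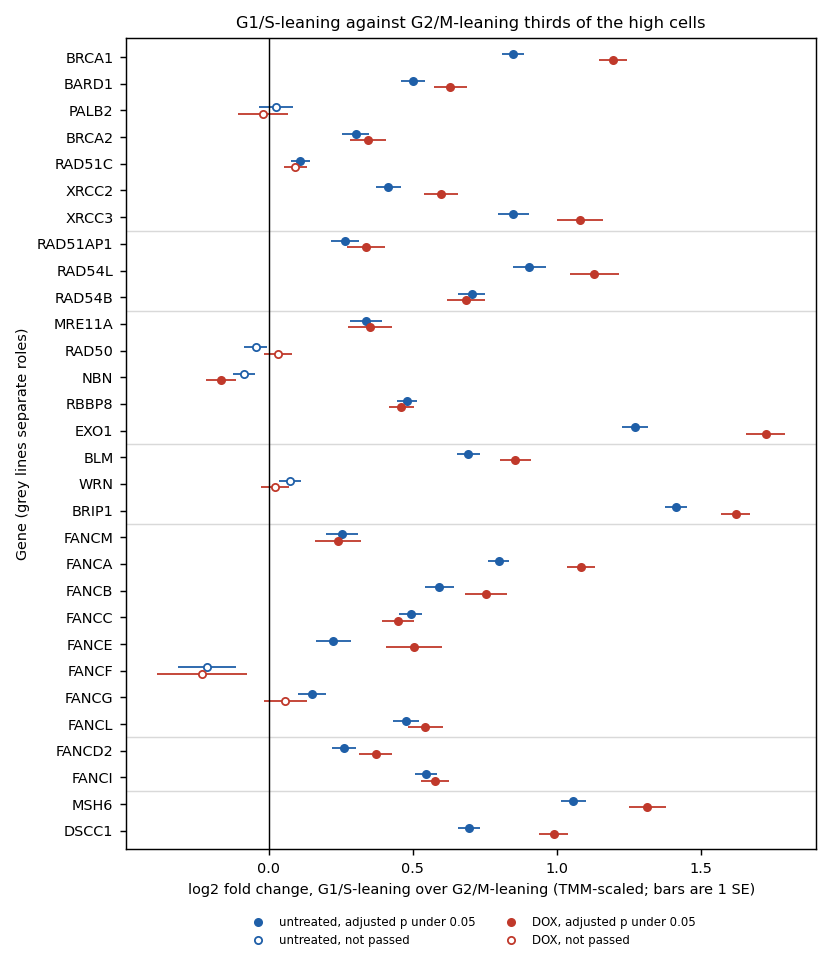
Log2 fold change of the G1/S-leaning over the G2/M-leaning part of the high cells (TMM-scaled) in untreated (blue) and DOX (red) libraries. Filled points passed an adjusted p of 0.05, open points did not, and bars are 1 SE. BRIP1 and EXO1 lie furthest right, and PALB2, WRN and RAD50 are open and close to 0. NBN lies left of 0 in both conditions, as does FANCF (-0.22 untreated and -0.23 with DOX, both open).

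Counting without regard to overlapping genes could touch some members. On hg19, 4 of them (BRCA1, RAD54B, MRE11A and FANCC) overlap another gene on the same strand, and 16 overlap a gene on the opposite strand. MRE11A is the symbol of the count tables for the gene now named MRE11.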

How the data were processed

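The deposited tables hold raw UMI counts with no normalization. The authors made them with Cell Ranger (7.2.0 per the file headers and the study's methods, while the submitters' processing notes list 7.0.0, CASAVA 1.8.2, SAMtools 1.2 and bedtools 2.25) by aligning 3′ reads to hg19. In each DOX library 8000 barcodes were kept by instruction. Whether intronic reads were counted is not given in the sources used here.

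Barcodes with at least 20000 UMIs and less than 8% mitochondrial UMIs were kept, and doublets were not called. The study's upper limits (150000 UMIs and 12000 genes) were an alternative. Counts were summed per library and cell class and tested with edgeR 4.0.16 (TMM factors, filterByExpr, quasi-likelihood F test, Benjamini-Hochberg adjustment over all genes tested, threshold 0.05), in R 4.3.3. Comparisons of classes used 8 sums with library as a block and an interaction term. DESeq2 1.42.0 was an alternative, with other scaling, filters, limits on barcodes, thinning, classes by share of UMIs (at most 50 and at least 250 CPM of the marker genes), a replicate block and each replicate left out. Thinning drew UMIs without replacement, and a share of cells has an exact 95% binomial interval. Positions come from GENCODE v44 lifted to hg19, and promoters from RefSeq. Counts were summed in Python 3.11.15 (scipy 1.17.1, pandas 2.3.3, numpy 2.4.6) and plotted with matplotlib 3.10.9. The scripts were tested on simulated counts. Replicates of a condition differed by more than counting (chi-square per degree of freedom of 46.7 untreated and 7.81 DOX).

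The members and gene lists were chosen with earlier results of these data known. All 30 members are described, and from every other list at most the 3 genes with the lowest adjusted p were named, besides MKI67, TOP2A, CDKN1A and GDF15, the markers of cell identity given as a check of the labels, and genes said to have been chosen after their values were seen.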

Additional observations from a re-analysis of the deposited data

Results flagged for a closer look

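The low-to-high difference itself differed between the conditions for 18 genes, as tested by the interaction of cell class and treatment across 8 sums (edgeR, adjusted p under 0.05, 2 libraries per condition). Each value is the log2 difference of DOX minus untreated, and a negative value means a larger drop from high to low cells in the DOX libraries. Among the genes that load or support the recombinase it was -1.83 for BRCA2, -1.58 for XRCC2, -1.43 for BRCA1, -0.87 for BARD1 and for XRCC3 and -0.39 for RAD51C. For strand exchange it was -2.11 for RAD51AP1 and -0.99 for RAD54B. The resection genes EXO1 and NBN had -1.78 and -0.43, and the helicases BLM and BRIP1 had -1.65 and -1.08. In the FA pathway the values were -1.82 for FANCB, -1.67 for FANCG, -0.96 for FANCA, -1.57 for FANCI and -0.96 for FANCD2. DSCC1 had -1.53. Of these genes only FANCI passed when low cells were limited to those with no MKI67 or TOP2A UMI (-1.35), a class of 29 and 18 untreated cells in which 1.71% of all genes passed in this direction. With the classes as set, 4.37% of all genes passed in this direction. So did MKI67 and TOP2A, 17 of 18 genes of G1/S (median -1.23) and 17 of 18 of G2/M (-1.87).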

How the results depend on the processing

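Over all comparisons and settings, 201 recomputed counts of members called lay within 1.5 times the reported count and 19 did not. A count of 0 that stayed 0 was placed among the 201. Only the G1/S-leaning comparisons had members called higher as set, so many of the 201 can be such zeros. High-cell falls numbered 10, but 4 with total UMIs only (15.9% and 8.82% of all genes) and 3 to 14 when a replicate was left out. Low-cell falls numbered 22, but 14 with classes by share of UMIs and 0 with the low class at 0 UMIs, which holds fewer cells and was chosen after seeing the data (13.9%, 11.1% and 2.06% of all genes fell). For the difference between conditions in the low-to-high drop, 18 became 9 and 1 under the same settings (4.37%, 2.52% and 1.71% of all genes). Members lower in G1/S-leaning untreated cells were 0, but 1 with classes by share and 0 to 2 with a replicate left out, and the 1 of the DOX libraries became 0 with total UMIs only, no filter, DESeq2, a mitochondrial share under 20%, thinning, classes by share and each replicate left out. The causes were not tested.

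Of single members, 141 values lost their call under a setting, 20 gained one and 27 changed sign, 0 of the last with an adjusted p under 0.05 on either side. In kept cells RAD50 and FANCF were 0.0557 and 0.0945 with total UMIs only, and FANCF ranged from -0.2163 to 0.0579 with a replicate left out. In high cells BRIP1 ranged from -0.0368 to 0.0888 in the same way. In low cells at 0 UMIs BARD1 was 0.18, BRIP1 0.37, RAD51C 0.19, XRCC3 0.18 and MRE11A 0.0338. WRN was 0.0126 with total UMIs only and 0.20 when thinned, and ranged from -0.32 to 0.15 with a replicate left out. RAD50 in low cells was 0.10 with total UMIs only, 0.0239 with no filter, 0.0124 at a mitochondrial share under 20% and 0.0631 with classes by share. For low against high cells, RAD50 was 0.0666 in thinned untreated cells, and FANCF was -0.064 with no filter, -0.12 at a mitochondrial share under 20% and -0.14 thinned, in DOX cells. For the difference between conditions at 0 UMIs, BARD1 was 0.20, BRIP1 0.24, RAD51C 0.35 and XRCC3 0.35. PALB2 between G1/S-leaning and G2/M-leaning untreated cells was -0.0086 with classes by share and ranged from -0.0048 to 0.0599 with a replicate left out.

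With replicate number as a block, 28 members fell in kept, 13 in high and 22 in low cells, where 27.6%, 18.5% and 14.6% of all genes fell. Deviations of same-numbered libraries correlated at 0.21 over 5260 genes, but with only 2 pairs the numbers are taken as shared names and not as pairing. Depth limits the low class: untreated low cells held as few as 17 UMIs of a member in a library.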

Other observations

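At a summed member level of 1000 CPM per cell, chosen after the values were seen, 37.2% (exact 95% interval 28.3 to 46.8%) and 31.25% (18.7 to 46.3%) of untreated low cells lay at or above it, against 12.3% (9.33 to 15.9%) and 11.1% (7.77 to 15.2%) of DOX low cells. Genes of G1/S moved with the limit: they summed to 1841 and 1726 CPM above it and 676 and 450 CPM below it in untreated low cells, and to 884 and 1150 CPM against 333 and 312 CPM in DOX low cells. Depth moved with the limit too, with median UMIs of 31676.5 and 52554 above and 53026 and 63518 below it in untreated low cells. In DOX low cells they were 48828 and 54540 against 79717 and 98594, and the part of depth was not tested. Below the limit the members themselves stood at 508 and 488 CPM untreated and 421 and 426 CPM with DOX. The limit was set on the members, so this is a description with no test.

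Barcodes outside the kept set also differed by condition. With under 2000 UMIs, the members made up 1572 and 2255 CPM in untreated libraries (172 and 85 barcodes) and 455 and 489 CPM in the DOX libraries (5011 and 5448 barcodes). In barcodes of at least 20000 UMIs with a mitochondrial share of at least 8% they made up 1548 and 1797 CPM untreated and 1047 and 1095 CPM with DOX. Both pairs lie on the same side as in kept cells. The barcodes under 2000 UMIs were not admitted alike, because only the DOX libraries had their number of barcodes set by instruction. A member UMI was found in 82.0% and 85.9% of the untreated and 47.8% and 45.0% of the DOX barcodes under 2000 UMIs. Whether these barcodes hold cells was not tested, so that pair cannot show a difference between cells.

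RMI2, a partner of BLM in dissolving joined molecules, was 1 of the 2 further recombination and FA genes that rose in high cells. In low cells it stood at 7.02 and 7.11 CPM untreated and 6.74 and 7.46 CPM with DOX, with overlapping conditions. The drop from high to low cells was larger with DOX (-0.79, SE 0.21, adjusted p = 0.047 for the difference of the drops). Of all genes, 4.37% passed in that direction. RMI2 was named after its rise in high cells was seen, and the same high-cell counts enter this difference. The larger drop is therefore no separate result.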
